A study of Mus musculus with 12 samples.

Results

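The ephrin-B ligands and EphB receptors comprised 8 genes of the 24480 in each count table, chosen by symbol: the 3 ligands *Efnb1*, *Efnb2* and *Efnb3* and the 5 receptors *Ephb1*, *Ephb2*, *Ephb3*, *Ephb4* and *Ephb6*. RNA-seq was performed on mouse dorsal lateral geniculate nucleus (dLGN), the thalamic relay of vision, at postnatal day 0 (P0), in 12 libraries that formed 4 groups of 3, each library made from a pool of 3 animals. *Sox2* mutants (Sox2flox/flox;Ror-alphaCre) were compared with controls of their line, which were Sox2flox/flox or Sox2flox/+ without Cre. *Nr2f1* mutants (Nr2f1 flox/flox;Ror-alphaCre) were compared with their own controls, whose label names the Ror-alphaCre allele but states that Cre was absent. The study's methods describe these controls as littermates without Cre that were Nr2f1flox/flox or Nr2f1flox/+. In the mutants, Cre was expressed from the *Rora* locus and removes the floxed gene in cells that express *Rora*, whereas other cells of the dissected tissue keep it. No control carried Cre alone. All 8 members passed the filter on low counts in both lines.

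Ephrin-B proteins span the membrane of one cell and bind EphB receptor tyrosine kinases on another, and signals then run both ways: forward through the receptor's kinase domain and reverse through the cytoplasmic tail of the ligand, which binds PDZ-domain proteins. In the developing visual system this signalling helps to guide retinal axons at the optic chiasm and to map them onto their targets, and it acts in synapse formation. EphB4 and ephrin-B2 also mark veins and arteries, respectively, and EphB6 lacks kinase activity. The A and B classes are mostly separate, but EphA4 also binds ephrin-B ligands and ephrin-A5 also binds EphB2.

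The targeted genes were examined first. *Sox2* had 361, 363 and 382 CPM in the controls of its line and 116, 150.4 and 152 CPM in the mutants, where CPM are read counts scaled to library size after TMM normalization. *Nr2f1* had 311, 370.4 and 380.1 CPM in its controls and 105, 151 and 101 CPM in its mutants. Both sets of labels were thus matched by the deleted gene in all 12 libraries. *Sox2* also fell in *Nr2f1* mutants, from a mean of 356 to 243 CPM (log2 fold change -0.55, FDR = 0.00635, edgeR). *Nr2f1* in *Sox2* mutants had a mean of 254 CPM against 332 in controls, with overlapping groups (-0.39, FDR = 0.0559). The part of these changes in the differences between the lines was not tested. Total counts lay between 39293465 and 50095344 per library, and the members had between 529 and 14528 counts in a library. All 96 member values were exactly whole numbers as deposited. The thalamic neuron list (*Slc17a6*, *Tcf7l2* and 6 other genes) summed to between 1529.7 and 2175 CPM over the 12 libraries.

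The 8 genes lie on 8 chromosomes of GRCm38: *Efnb1* on X from 99136061 to 99149022, *Efnb2* on 8 from 8617235 to 8661242, *Efnb3* on 11 from 69554092 to 69561150, *Ephb1* on 9 from 101922128 to 102354693, *Ephb2* on 4 from 136647536 to 136836326, *Ephb3* on 16 from 21204620 to 21223309, *Ephb4* on 5 from 137350109 to 137374522 and *Ephb6* on 6 from 41603834 to 41620509. Whether the counting used the strand is not given in the sources used here, so reads from a gene and from one that overlaps it could not be told apart. Among genes of the tables, *Mir7243* lies inside *Ephb1* and had 0 counts in every library. GENCODE places 9 genes over *Ephb1*, *Mir7243* among them, and 3 over *Efnb2*. Those other than *Mir7243* had no row in the count tables, so their reads could not be checked. In the GENCODE annotation *Zan* overlaps *Ephb4* on the opposite strand. It had 11 to 42 counts in the *Sox2* line and 22 to 36 in the *Nr2f1* line.

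Because *Ephb1* had the largest change among the members in *Sox2* mutants, the start of this gene is shown. RefSeq promoters of GRCm38 (250 bases before to 50 after the start) were found for 7 members, without *Efnb3*, and both strands were searched for ACAAAG, a core of SOX binding sequences, for its variant with the letters ACAATG, and for the half-site of nuclear receptors, which reads AGGTCA. The letters ACAATG were present in 1 of the 7 promoters, that of *Ephb1*, and in 12.8% of all 27025 promoters. ACAAAG, held by 18.7% of all promoters, and AGGTCA, held by 16% of them, were not among the letters of these 7 windows. The match began 132 bases before the *Ephb1* start and is shown within 30 bases, chr9:102354808-102354837 on the minus strand. The capitals mark the searched letters, which describe the sequence and do not show a binding site.
Ephb1: tttcttaaactaACAATGccagtgtaagga

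Levels of different genes were compared as CPM per kilobase of the longest annotated transcript, and on this scale the ligand *Efnb3* was the most abundant member in controls and the ligand *Efnb2* the least. *Efnb3* had 71.3 ± 8.09 CPM per kb in the controls of the *Sox2* line and 75.5 ± 0.54 in those of the *Nr2f1* line (SD, n = 3 each), above 95.1 and 95.5% of the genes tested. *Ephb6* and *Ephb2* came next: in the *Sox2* controls they had 24.5 ± 0.86 and 23.3 ± 3.23 CPM per kb, with overlapping ranges, and in the *Nr2f1* controls *Ephb2* (28.7 ± 1.64) lay above *Ephb6* (22.4 ± 1.26) in every library. *Ephb1* (9.05 ± 0.37 and 8.72 ± 1.07) and *Efnb1* (8.24 ± 1.05 and 7.44 ± 0.91) overlapped each other in both lines. *Ephb3* (5.57 ± 0.19 and 4.57 ± 0.51) and *Ephb4* (4.995 ± 0.98 and 3.81 ± 0.37) overlapped in the *Sox2* controls only, and *Efnb2* (3.12 ± 0.18 and 2.74 ± 0.29) lay below all other members. The order depended on the length used. With the mean length of all annotated transcripts, many of them short, *Ephb2* had 65.4 and 80.5 CPM per kb and *Ephb6* 65.7 and 60.3, so that *Ephb2* lay above *Efnb3* in the *Nr2f1* controls. The lowest member was then *Ephb4*, at 5.41 and 4.12 CPM per kb, next to *Efnb2* at 5.43 and 4.76. With the mean length of the transcripts that have a RefSeq counterpart, a choice made after seeing the data, *Ephb2* had 32.3 and 39.8 CPM per kb, below *Efnb3* and above *Ephb6* in both lines.

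None of the 3 ligands passed the threshold of FDR below 0.01 in either line (edgeR quasi-likelihood test), although *Efnb1* lay close to it in the *Sox2* mutants. Of all genes tested, 8.08% passed in *Sox2* mutants and 2.54% in *Nr2f1* mutants. At an unadjusted p below 0.05, 2 of the 3 passed in the *Sox2* mutants and all 3 in the *Nr2f1* mutants, where 35 and 24.6% of all genes did. DESeq2 called *Efnb1* and *Efnb2* in the *Sox2* mutants, with 15.8% of all genes, and *Efnb3* in the *Nr2f1* mutants, with 7.13%. For these and all later values, a change in the number of cells of a type and a change in RNA per cell cannot be told apart in pooled tissue.

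*Efnb1*, a ligand expressed by many neural cell types, had 28.4, 22.9 and 29.3 CPM in the *Sox2* controls and 35.0, 37.99 and 40.7 CPM in the mutants. Every mutant library lay above every control library, and the fitted level was 1.41-fold that of controls (95% interval 1.20 to 1.66, FDR = 0.0108, edgeR). The call depended on the setting: FDR was between 2.64e-04 and 0.0544 over 17 alternatives, 10 of which called it. *Efnb1* in the *Nr2f1* line had 24.2, 21.3 and 27.2 CPM in controls and 27.2, 27.5 and 31.3 CPM in mutants. Here the lowest mutant overlapped the highest control, and the log2 fold change was 0.24 ± 0.10 (SE, FDR = 0.173). *Efnb1* is X-linked and the pools differed in sex. *Xist* stood between 0.189 and 579 CPM in the *Sox2* controls and between 0.463 and 307 CPM in the *Sox2* mutants. Sex moved with genotype in the *Nr2f1* line, where *Xist* had 0.283 to 484 CPM in controls and 506 to 1150.1 CPM in mutants, and 4 male-specific genes summed to 43.6 to 97.4 and 0 to 52.1 CPM. Its part in the values of that line was not tested beyond the male-specific covariate, with which 71 genes were called in *Nr2f1* mutants in place of 396. With the male-specific genes as a covariate, the log2 fold change of *Efnb1* in the *Sox2* mutants was 0.61 (FDR = 0.00264).

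*Efnb2* is the ligand known from arterial endothelium. It had 14.2, 14.7 and 15.9 CPM in the *Sox2* controls and 29.6, 17.4 and 21.8 CPM in the mutants, with a log2 fold change of 0.62 ± 0.17 (SE, FDR = 0.0313). The mutants lay above the controls, but mutant 1 alone stood at about the sum of a pair of control libraries. Without mutant 1 the log2 fold change was 0.40. The same library held the highest sum of 6 pallial and hippocampal neuron markers, 107 CPM, where the other *Sox2* line libraries had 14.4 to 63.4 CPM. *Efnb2* in the *Nr2f1* line had 13.9, 13.9 and 11.5 CPM in controls and 18.1, 12.4 and 23.2 CPM in mutants, and mutant B lay among the controls (log2 fold change 0.45 ± 0.19, FDR = 0.190). Without mutant C the log2 fold change was 0.21.

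*Efnb3*, the ligand best known from axon guidance at the midline, had 240.1, 243 and 197 CPM in the *Sox2* controls and 257, 223 and 239 CPM in the mutants. The groups overlapped and the 95% interval of the fold, 0.913 to 1.22, included no change. Controls of the *Nr2f1* line were close together at 242, 238 and 240.1 CPM, and the mutants had 295, 279 and 271 CPM. All mutants were higher, by 1.17-fold (95% interval 1.09 to 1.26, FDR = 0.0206). *Efnb3* made up 86.1 ± 2.48% of the summed ephrin-B level per kb in *Sox2* controls and 82.1 ± 0.61% in *Sox2* mutants, and 88.1 ± 0.65 and 87.6 ± 1.82% in the *Nr2f1* line.

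**Figure D1:**
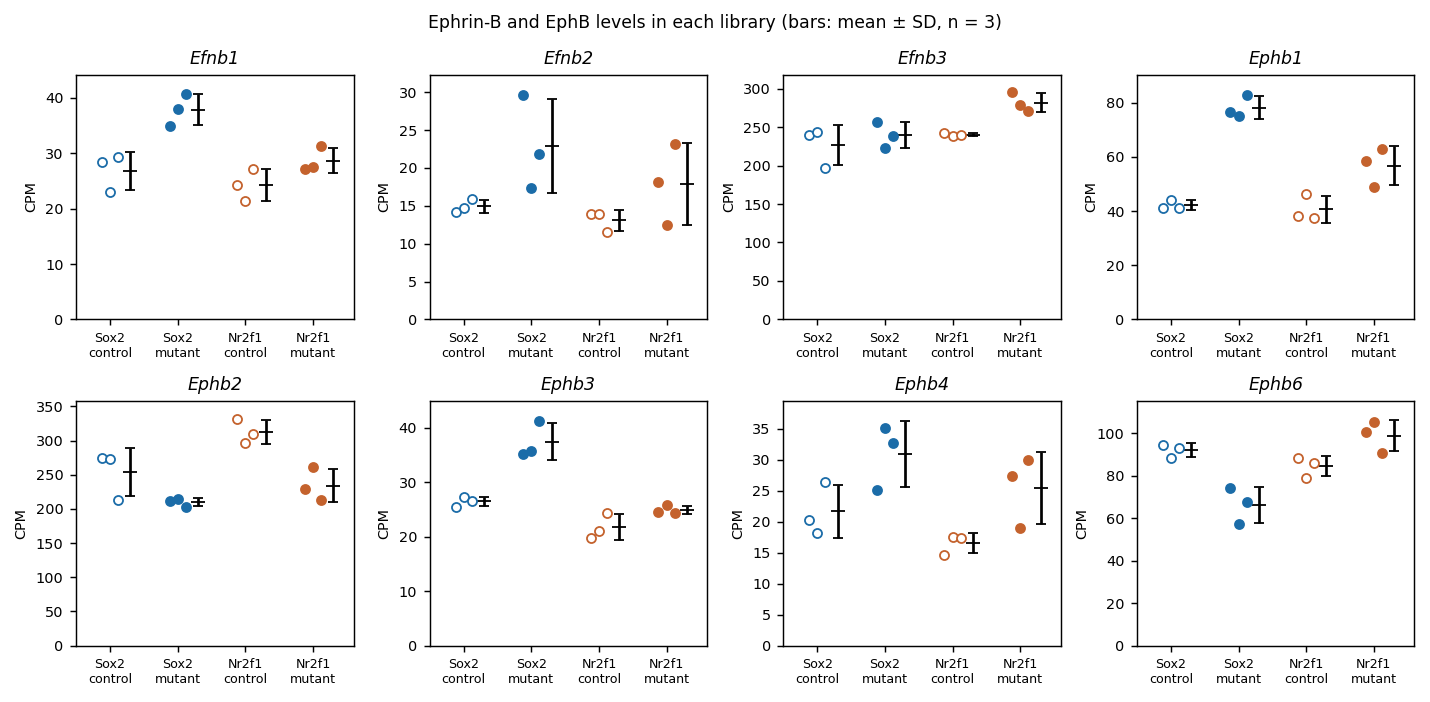
Normalized levels (CPM, y axis from 0) of the 8 members in each of the 12 libraries, with open points for controls, filled points for mutants, and bars for the mean ± SD of 3 libraries. *Ephb1* was higher in all mutants of both lines than in their controls, and *Ephb6* was lower in *Sox2* mutants and higher in *Nr2f1* mutants.

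In the *Sox2* mutants *Ephb1* and *Ephb3* rose and *Ephb6* fell (FDR below 0.01), while *Ephb2* and *Ephb4* did not pass. Among all genes tested, 3.9% passed as higher and 4.19% as lower. Of the 8 members 6 had FDR below 0.05, compared with 19.8% of all genes, and for 5 the groups did not overlap, compared with 37.9%. In the *Nr2f1* mutants 0 of the 5 receptors and 0 of the 8 members passed with the quasi-likelihood test of edgeR. All 8 had an unadjusted p below 0.05, and 4 had FDR below 0.05, compared with 24.6 and 7.4% of all genes, and for 6 the groups did not overlap, compared with 28.6%. Other tests called 4 of the 8 each, namely DESeq2 (7.13% of all genes) and edgeR's exact (6.87%) and likelihood ratio (6.98%) tests.

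*Ephb1*, a receptor that is known to steer ipsilateral retinal axons at the optic chiasm, had 41.3, 44.2 and 41.2 CPM in the *Sox2* controls and 76.6, 75.2 and 82.9 CPM in the mutants. The mutant libraries lay far above the controls, by 1.85-fold (95% interval 1.66 to 2.07, FDR = 7.59e-05, edgeR). The call was made under each of 17 alternatives, 6 of which left out a library, and the log2 fold change stayed between 0.84 and 0.93. Its levels in the *Nr2f1* line were 38.3, 46.5 and 37.4 CPM in controls and 58.4, 48.8 and 63.0 CPM in mutants. The groups did not overlap, although mutant B came within a few CPM of control D, and the log2 fold change was 0.48 ± 0.11 (SE, FDR = 0.0298). Of 16 alternatives 5 called *Ephb1* in the *Nr2f1* mutants, with FDR between 2.95e-04 and 0.152. Leaving out mutant B was 1 of the 5, with a log2 fold change of 0.58, and gave 868 called genes in place of 396. The paper names EphB1 among deregulated genes of retinal axon guidance, in a section on genes changed in both mutants. Here, with all libraries and the quasi-likelihood test, it passed in *Sox2* mutants but not in *Nr2f1* mutants. DESeq2 and edgeR's exact and likelihood ratio tests called it in both mutants. In *Nr2f1* mutants these tests called 7.13, 6.87 and 6.98% of all genes.

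*Ephb3*, a receptor of neural progenitors and of commissural axon growth, had 25.5, 27.3 and 26.6 CPM in the *Sox2* controls and 35.1, 35.7 and 41.3 CPM in the mutants. All mutants were higher, with a log2 fold change of 0.50 ± 0.09 (SE, FDR = 0.00400). The call was lost without control 1, control 2 or mutant 4, and with the male-specific covariate (FDR up to 0.0220 over the 17 alternatives). For the *Nr2f1* line the values were 19.7, 21.1 and 24.4 CPM in controls and 24.5, 25.8 and 24.4 CPM in mutants, so that control E and mutant C nearly met (log2 fold change 0.20 ± 0.09, FDR = 0.203).

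Markers of other cell types moved beside these receptors. In *Sox2* mutants the 8 astrocyte and radial glia markers summed to 2578 to 2997 CPM, against 1671 to 2052 in controls. All 8 were higher and 5 of them passed. The 9 microglial markers summed to 277 to 321 CPM in these mutants and 134 to 148 in controls, and all 9 were higher and 8 passed. GABAergic markers summed to 153 to 205 CPM in the *Sox2* mutants and 87.3 to 133 in controls. Of these 8 markers 0 passed (edgeR), while all 8 had an unadjusted p below 0.05. In the *Nr2f1* line they summed to 112 to 232 CPM in mutants and 115 to 124 in controls, with overlap. Over all genes tested, 8.08 and 2.54% passed in *Sox2* and *Nr2f1* mutants, and 35 and 24.6% had an unadjusted p below 0.05. In the *Nr2f1* line the astrocyte sum was 1545 to 1755 CPM in mutants and 1410.0 to 1454 in controls, and the microglial sum 135 to 166 and 109 to 125. Of these astrocyte and microglial markers 1 of 8 and 0 of 9 passed in the *Nr2f1* mutants. The oligodendrocyte lineage markers summed to 768 to 903 CPM in *Sox2* mutants and 629 to 757 in controls, and to 573 to 613 and 533 to 565 in the *Nr2f1* line, and in both mutants *Mbp* rose and *Mag* fell. The 4 markers of dividing cells summed to 188 to 225 CPM in *Sox2* mutants and 133 to 176 in controls, and 0 of them passed (edgeR), while all 4 had an unadjusted p below 0.05. Thalamic neuron markers went both ways. In *Sox2* mutants *Slc17a6*, the vesicular glutamate transporter of thalamic neurons, fell from 231 ± 36.5 to 119 ± 3.32 CPM and *Lef1* fell, while *Gbx2* rose and 5 of the 8 did not pass. In *Nr2f1* mutants *Lef1* fell, *Cacna1g* rose and 6 did not pass. Their sum, to which *Tcf7l2* gave the most, was 1664 to 1712 CPM in *Sox2* mutants and 1529.7 to 1926 in controls, and 1981 to 2175 against 1869 to 1966 CPM in the *Nr2f1* line. No marker of these lists was at 0 in all libraries. Their part in the changes of the receptors was not tested.

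*Ephb6*, the receptor without kinase activity, had 94.5, 88.3 and 93.2 CPM in the *Sox2* controls and 74.1, 57.3 and 67.7 CPM in the mutants. All mutants were lower, with a fold of 0.721 (95% interval 0.625 to 0.833, FDR = 0.00754). Of 17 alternatives 10 called it. FDR was 0.0109 with upper quartile normalization, 0.0117 with library totals and 0.0223 with the male-specific covariate, and leaving out control 1, control 2, mutant 3 or mutant 4 also ended the call. *Ephb6* in the *Nr2f1* line had 88.2, 79.1 and 85.8 CPM in controls and 101, 105 and 90.7 CPM in mutants. There every mutant was higher than every control (log2 fold change 0.23 ± 0.07, FDR = 0.0711).

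*Ephb2*, a receptor of synapse formation and of axon guidance that had the highest CPM of the receptors, was at 275, 273 and 213 CPM in the *Sox2* controls and 212, 215 and 203 CPM in the mutants. Control 3 lay among the mutants, and the log2 fold change was -0.27 ± 0.10 (SE, FDR = 0.0790). Without control 3 it was -0.37 and passed the threshold (FDR = 0.00217), and 2161 genes were called in place of 1261. This was the only 1 of 17 alternatives to call *Ephb2*, with FDR up to 0.422 among them. *Ephb2* in the *Nr2f1* line had 331, 296 and 310.3 CPM in controls and 229, 261 and 213 CPM in mutants. All mutants were lower, by a fold of 0.749 (95% interval 0.666 to 0.843, FDR = 0.0116), just outside the threshold.

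*Ephb4*, the receptor known from venous endothelium, had 20.4, 18.2 and 26.4 CPM in the *Sox2* controls and 25.1, 35.2 and 32.7 CPM in the mutants. Control 3 lay above mutant 1 (log2 fold change 0.51 ± 0.16, SE, FDR = 0.0462), and without control 3 the log2 fold change was 0.69 and passed the threshold. Of 17 alternatives 2 called *Ephb4*, with FDR up to 0.167. In the *Nr2f1* line it had 14.7, 17.6 and 17.3 CPM in controls and 27.4, 19.0 and 30.0 CPM in mutants. Mutants A and C stood apart while mutant B was near the controls (log2 fold change 0.62 ± 0.15, FDR = 0.0419).

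*Ephb4* and *Efnb2* were set beside 9 endothelial markers (*Pecam1*, *Cdh5*, *Cldn5* and 6 others). In the *Sox2* line the markers summed to 348, 367 and 533 CPM in controls and 483, 615 and 554 CPM in mutants, and control 3, the highest control for *Ephb4*, was also the highest control for this sum. In the *Nr2f1* line the sums were 323, 398 and 343 CPM in controls and 514, 387 and 545 CPM in mutants, and mutants A and C were the highest for *Ephb4*, *Efnb2* and the sum. The libraries ordered differently for *Efnb2* in the *Sox2* mutants, where mutant 1 had the most *Efnb2* and the lowest endothelial sum of the 3. Of the 9 markers 0 passed with edgeR in either line. An unadjusted p below 0.05 was found for 6 and 8, compared with 35 and 24.6% of all genes. DESeq2 called 0 and 3, with 15.8 and 7.13% of all genes. Arterial markers summed to 32.1 to 39.3 CPM in *Sox2* mutants and 25.4 to 35.6 in controls, and to 31.4 to 45.3 and 25.0 to 29.2 CPM in the *Nr2f1* line. The same libraries were high in meningeal fibroblast markers, with 1944.8 and 2383 CPM in *Nr2f1* mutants A and C and 709 to 1082 in the controls. Mutants A and C were also higher in GABAergic markers, with 175 and 232 CPM against 112 in mutant B. Mutant B kept the most *Nr2f1*, 151 CPM against 105 and 101 in A and C. The part of vessels, meninges and these other differences in the values of these members was not tested.

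**Figure D2:**
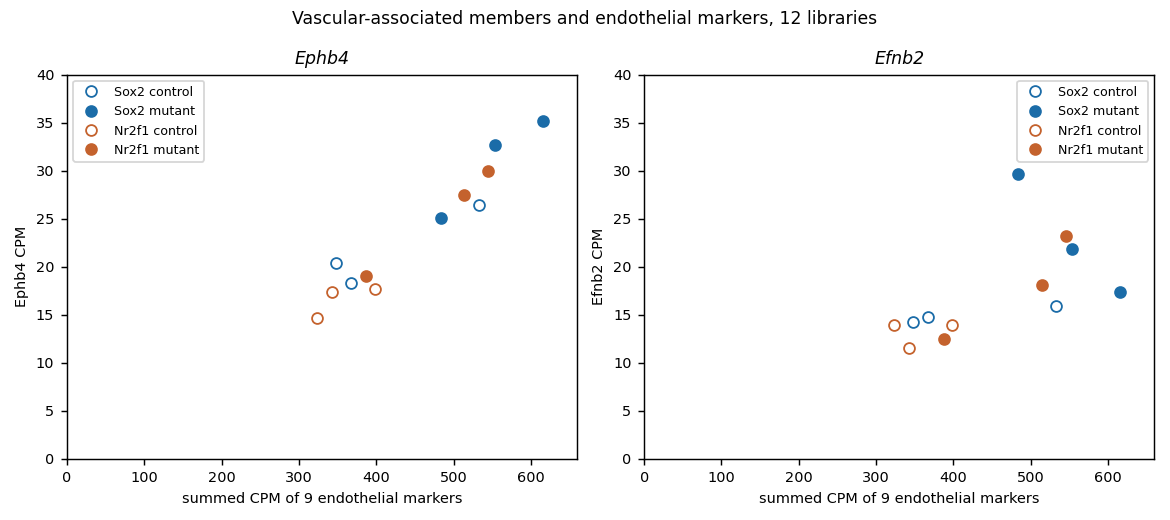
Levels of *Ephb4* (left) and *Efnb2* (right) in CPM against the summed CPM of 9 endothelial markers in the 12 libraries, with open points for controls and filled points for mutants. *Ephb4* was high in the libraries with a high endothelial sum, such as *Sox2* control 3 and *Nr2f1* mutants A and C, while *Efnb2* was highest in *Sox2* mutant 1 at a sum of 483 CPM.

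**Figure D3:**
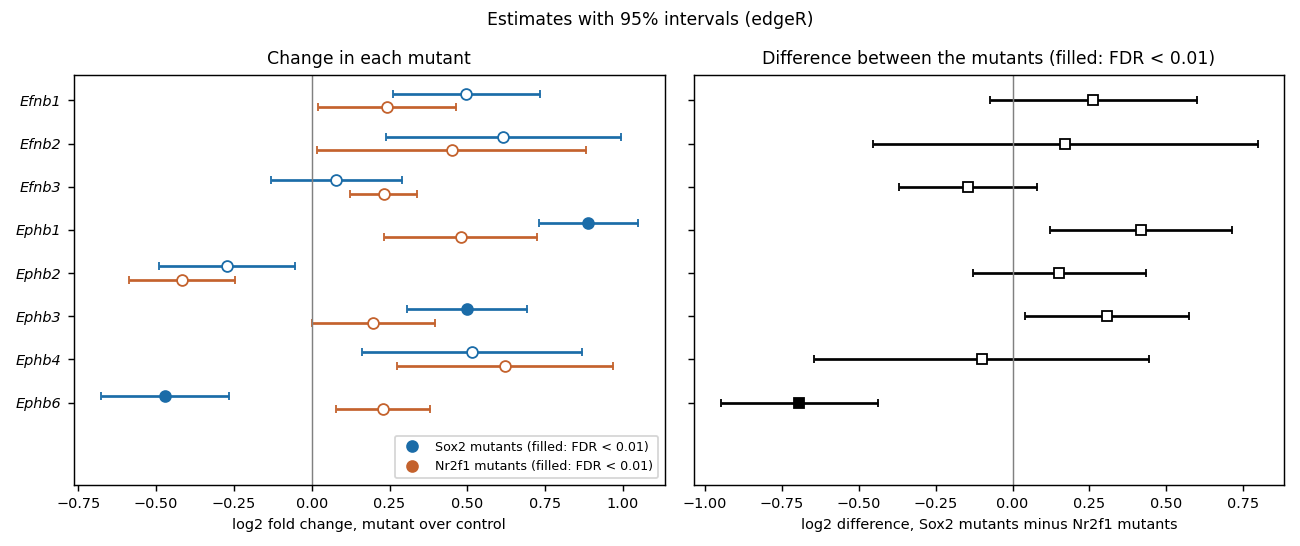
Left, log2 fold change of mutants over the controls of their line for each member, and right, the log2 difference between the changes in the 2 mutants, each with its 95% interval (edgeR) and filled where FDR was below 0.01. *Ephb1*, *Ephb3* and *Ephb6* were called in *Sox2* mutants, no member in *Nr2f1* mutants, and *Ephb6* alone for the difference.

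The shares of *Ephb1* and *Ephb6* in the summed EphB level differed between *Sox2* mutants and controls, while the sum itself overlapped between groups. These sums, shares and ratios were chosen after the values were seen, and their size depends on the transcript lengths used. The sum was 67.4 ± 2.26 CPM per kb in *Sox2* controls and 68.7 ± 1.96 in *Sox2* mutants, and 68.2 ± 1.49 and 71.0 ± 1.596 in the *Nr2f1* line (SD, n = 3). In *Sox2* mutants *Ephb1* took 24.4 ± 0.68% of the sum instead of 13.4 ± 0.60%, and *Ephb6* took 25.7 ± 2.91% instead of 36.3 ± 1.84%. *Ephb2* took 28.1 ± 1.62% in *Sox2* mutants instead of 34.5 ± 3.76%. In *Nr2f1* mutants *Ephb2* took 30.2 ± 2.59% instead of 42.0 ± 1.52%, and *Ephb6* 37.0 ± 1.98% instead of 32.9 ± 1.15%. The share of *Ephb1* there was 17.2 ± 2.51% in mutants and 12.8 ± 1.84% in controls, and these groups overlapped.

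For every 100 CPM per kb of *Ephb2* there were 35.0, 37.8 and 45.1 of *Ephb1* in the *Sox2* controls and 84.2, 81.6 and 95.3 in the mutants. In the *Nr2f1* line there were 27.0, 36.7 and 28.2 in the controls and 59.7, 43.8 and 69.0 in the mutants. The mutants lay above the controls in both lines. In the *Nr2f1* line this had to follow, as all mutants were higher for *Ephb1* and lower for *Ephb2*. The ratio is therefore a description and adds no test to those of the single genes. The fold between mutants and controls in such a ratio does not depend on the lengths.

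**Figure D4:**
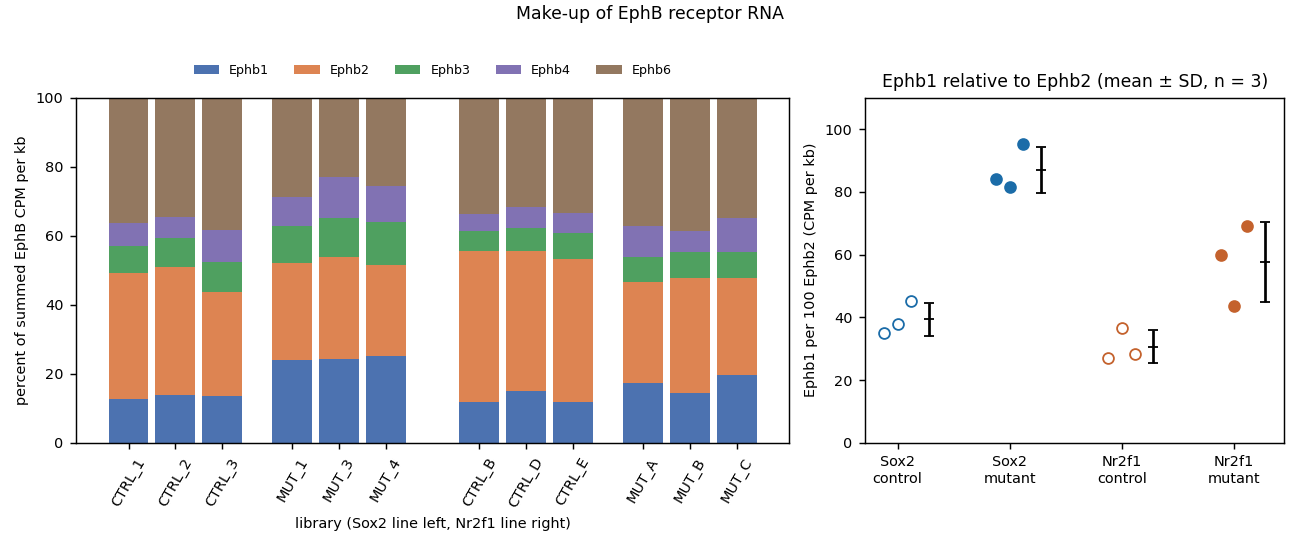
Left, the percentage of the summed EphB level (CPM per kb) taken by each receptor in the 12 libraries, and right, *Ephb1* per 100 *Ephb2* in each library with the mean ± SD of 3 libraries. *Ephb1* took 24.4% of the sum in *Sox2* mutants and 13.4% in their controls, and its ratio to *Ephb2* was higher in the mutants of both lines.

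The changes in *Sox2* and *Nr2f1* mutants were set against each other by an interaction term (line by genotype, 12 libraries), which passed the threshold for 1.44% of all genes. Of the 8 members 1 passed, *Ephb6*, with a log2 difference of -0.69 ± 0.12 (*Sox2* minus *Nr2f1*, SE, FDR = 0.00467). Of 17 alternatives 8 called it, with FDR between 1.26e-05 and 0.0391. The call was lost with the male-specific covariate, and without control 1, control 2 or mutant 4 of the *Sox2* line or any library of the *Nr2f1* line other than mutant C. For *Ephb1* the difference was 0.42 (95% interval 0.12 to 0.71, FDR = 0.128) and for *Ephb3* it was 0.31 (95% interval 0.04 to 0.57, FDR = 0.231), and neither passed. The intervals of the other 5 members included 0, the widest being that of *Efnb2*, from -0.45 to 0.80.

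*Epha4*, a receptor for ephrin-B ligands, fell in both mutants, from 239, 208 and 181 to 115, 144 and 118 CPM in *Sox2* mutants and from 271, 233 and 262 to 106, 144 and 99.7 CPM in *Nr2f1* mutants. The log2 fold changes were -0.74 (FDR = 0.00250) and -1.13 (FDR = 8.78e-04). *Efna5*, a ligand of EphB2, fell in *Sox2* mutants from 103, 104 and 85.2 to 31.3, 34.3 and 27.8 CPM (log2 fold change -1.65, FDR = 2.64e-05). In *Nr2f1* mutants it had 178, 148 and 113 CPM against 96.4, 91.9 and 99.1 CPM in controls (0.61, FDR = 0.0244). The changes differed by -2.25 (FDR = 1.64e-05).

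Of the 37 genes listed for signalling by ephrin-B and EphB, 4 passed in *Sox2* mutants and 1 in *Nr2f1* mutants, next to 8.08 and 2.54% of all genes tested. Of 20 genes of forward signalling, 1 passed as higher and 1 as lower in *Sox2* mutants, and 0 passed in *Nr2f1* mutants. *Tiam1*, an activator of Rac, rose from 32.2 ± 1.47 to 42.5 ± 3.41 CPM (log2 fold change 0.40, FDR = 0.00914). *Vav3*, another such activator that is recruited by Eph receptors, fell from 72.1, 61.1 and 59.6 to 26.6, 27.5 and 26.0 CPM (-1.27, FDR = 3.65e-05). In the *Nr2f1* line *Vav3* had 68.7 ± 2.56 CPM in controls and 62.1 ± 6.72 in mutants, with overlap, and its changes in the 2 mutants differed by -1.11 (FDR = 1.53e-04). The median log2 fold change of the 20 genes was -0.07 in *Sox2* and -0.04 in *Nr2f1* mutants, against 0.00 and 0.01 over all genes tested. In each line 7 of the 20 had an unadjusted p below 0.05, against 35 and 24.6% of all genes. DESeq2 called 4 and 1, with 15.8 and 7.13% of all genes.

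Of 9 genes of reverse signalling and PDZ binding, 2 passed as higher in *Sox2* mutants and 1 in *Nr2f1* mutants. Of all genes tested, 8.08 and 2.54% passed. In each line 5 of the 9 had an unadjusted p below 0.05, against 35 and 24.6% of all genes. DESeq2 called 4 and 3, with 15.8 and 7.13% of all genes. *Sdcbp*, which encodes the PDZ protein syntenin, rose from 41.0 ± 2.80 to 56.7 ± 0.42 CPM (log2 fold change 0.47, FDR = 0.00219). *Stat3*, a transcription factor that ephrin-B tails can bind, rose from 59.7 ± 5.44 to 90.2 ± 10.8 CPM (0.60, FDR = 0.00372). *Ptpn13*, a phosphatase of ephrin-B tails, rose in *Nr2f1* mutants from 24.8 ± 1.02 to 36.9 ± 5.21 CPM (0.58, FDR = 0.00855) while in *Sox2* mutants its log2 fold change was 0.57 (FDR = 0.0165). The medians of the 9 genes were 0.09 and 0.11. Of 8 genes for cleavage and turnover, such as *Adam10* and the γ-secretase subunits, 0 passed in either line with edgeR. An unadjusted p below 0.05 was found for 0 and 1, DESeq2 called 0 and 1, and the medians were 0.01 and -0.06. The shares over all genes were those given for the 9 genes.

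**Figure D5:**
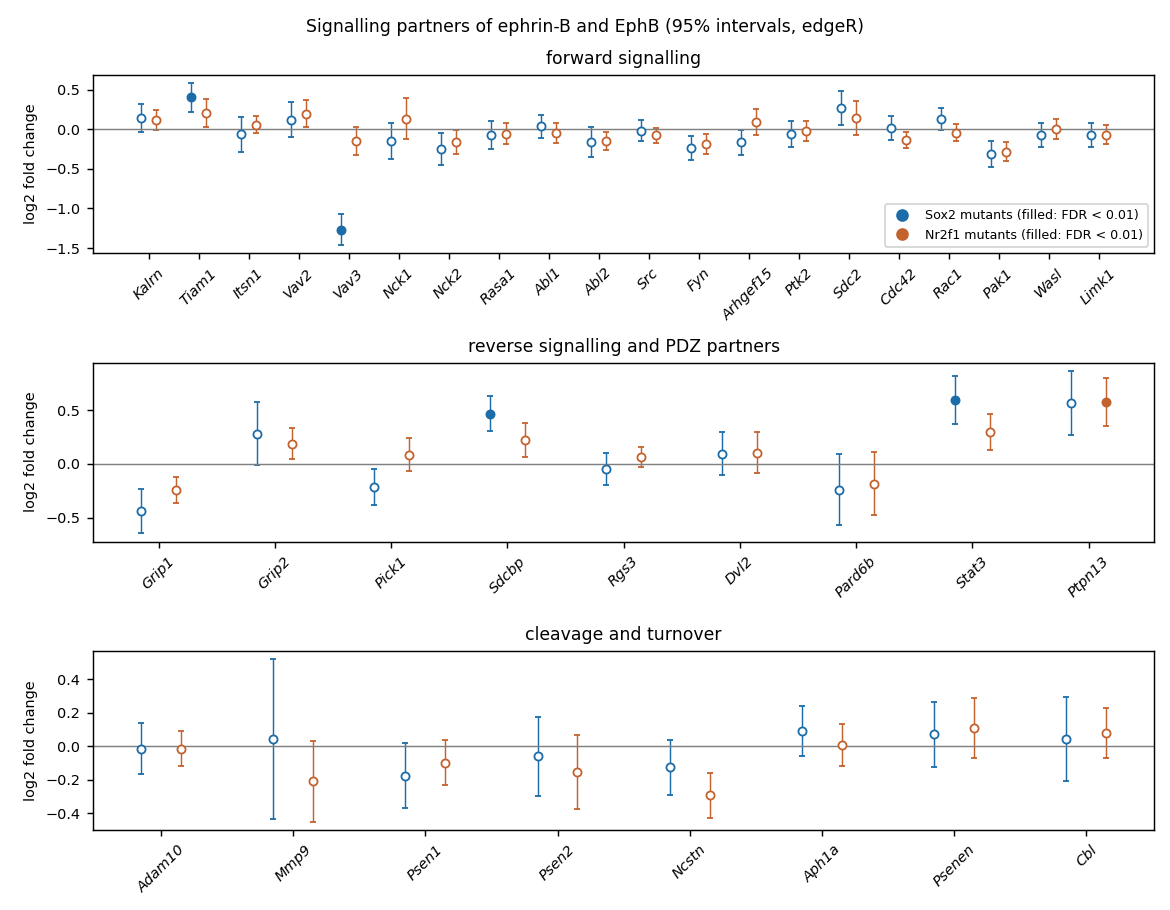
Log2 fold change with its 95% interval (edgeR) for the 37 signalling genes in *Sox2* and *Nr2f1* mutants, in 3 panels by role, filled where FDR was below 0.01. *Vav3*, *Tiam1*, *Sdcbp* and *Stat3* were called in *Sox2* mutants and *Ptpn13* in *Nr2f1* mutants.

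For each called receptor, the 3 genes with the smallest root mean square difference of log2 CPM over the 12 libraries, each gene centred on the controls of its line, are given as a description. For *Ephb1* they were *Inpp5d* (0.0817), *Itga7* (0.104) and *Igsf11* (0.112), where the median over all genes was 0.546. For *Ephb3* they were *Kcnj10* (0.0676), *Ndrg2* (0.0728) and *Itpr2* (0.0778), with a median of 0.341. For *Ephb6* they were *Apoa1* (0.0818), *Ccdc30* (0.0879) and *Taf1a* (0.0917), with a median of 0.328. The genes named for *Ephb1* and *Ephb3* were called in *Sox2* mutants, while those named for *Ephb6* were called in neither line.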

How the data were processed

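RNA-seq of dLGN tissue was analysed from 1 table per line. Read pairs were mapped by the authors with STAR to RefSeq transcripts of the mouse and quantified with RSEM, and the values they deposited are expected counts per gene, not normalized. The labels name STAR and the build mm10, and versions are not given in the sources used here. Of the deposited expected counts, 7.77% were not whole, and all were rounded. Total counts were 39293465 to 50095344 per library. Libraries were grouped by column names, which give the group but not the single sample, so libraries bear the column numbers or letters. Whether pools are from separate litters is not stated, so p-values measure the spread between pools.

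Counts were tested in R 4.3.3 with edgeR 4.0.16 (filterByExpr with minimum count 10 and total 15, TMM, glmQLFit, glmQLFTest), mutants against controls of the same line, adjusted by Benjamini-Hochberg over all genes tested (15602 in the *Sox2* and 15600 in the *Nr2f1* line, 15989 for the interaction). A gene was called at FDR below 0.01, the threshold of the study's methods. The paper reports more called genes in each mutant at this threshold than were called here. Levels are CPM, as mean ± SD. Positions are from RefSeq and transcript lengths from GENCODE M21 (both GRCm38), and lengths were known for 97.1% of the genes tested. Alternatives were DESeq2 1.42.0, other edgeR tests, filters, normalizations, covariates and leaving out each library. Scripts were tested on simulated data. The members, pathway lists and marker lists were chosen with earlier results of these data known. Named genes were the members, the targeted genes, *Epha4* and *Efna5*, called pathway genes, nearest profiles and markers of lists that moved with a member. Chromatin data of the study were not analysed here. The value of 1 marker gene is not reported here.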

Additional observations from a re-analysis of the deposited data

Results flagged for a closer look

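The difference between the changes in *Sox2* and *Nr2f1* mutants, tested as an interaction over the 12 libraries (edgeR), passed FDR below 0.01 for 1 member, *Ephb6*, and for 1 partner of the A class, 1 signalling gene, both targeted genes and marker genes. For *Ephb6* it was -0.69 on the log2 scale (FDR = 0.00467), with a fall in *Sox2* mutants and values above the controls in all 3 *Nr2f1* mutants. For *Efna5* it was -2.25 (FDR = 1.64e-05), with a fall in *Sox2* mutants and higher values in all 3 *Nr2f1* mutants. For *Vav3* it was -1.11 (FDR = 1.53e-04), with a fall in *Sox2* mutants and overlapping groups in the *Nr2f1* line. For the targeted genes it was -0.84 (*Sox2*, FDR = 0.00603) and 1.19 (*Nr2f1*, FDR = 0.00742). Among markers it was -0.91 for *Slc17a6* of thalamic neurons, and 0.69 for *Cx3cr1*, 1.48 for *P2ry12* and 1.32 for *Trem2* of the microglial list.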

How the results depend on the processing

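In *Sox2* mutants 3 members and 4 signalling genes were called. The counts were 6 and 8 at FDR below 0.05 and with DESeq2, 5 and 7 with edgeR's exact and likelihood ratio tests, and a fit over all 12 libraries gave 8 signalling genes. Leaving out 1 library gave 1 to 6 members and 1 to 6 signalling genes, with 1 of each without control 1, control 2 or mutant 4, and 6 members without control 3. In *Nr2f1* mutants 0 members and 1 signalling gene were called. The counts were 4 and 5 at FDR below 0.05 and with DESeq2, 4 and 3 with edgeR's exact and likelihood ratio tests, 1 and 2 with no filter, 1 member with library totals, 1 and 0 in the fit over 12 libraries, and 0 signalling genes with the male-specific covariate. Leaving out 1 library gave 0 to 3 members and 0 to 2 signalling genes, with 3 and 2 without mutant B and 0 signalling genes without any of the others. For the difference between the mutants 1 member was called, 0 with the male-specific covariate and 0 to 1 without 1 library. The cause of these shifts was not tested.

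Over all genes, 1261 were called in *Sox2* mutants (494 to 2161 without 1 library, 2468 with DESeq2, 819 with the male-specific covariate), 396 in *Nr2f1* mutants (133 to 868, 1112 and 71) and 231 for the difference (133 to 308, 544 and 107). Upper quartile normalization gave 749 higher and 565 lower genes in *Sox2* mutants in place of 608 and 653.

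Directions turned only where the estimate was near 0: without 1 library *Efnb3* in *Sox2* mutants was -0.0023 (without control 3) to 0.13, the difference between the mutants for *Ephb4* was -0.26 to 0.075 (above 0 without *Sox2* control 3, *Sox2* mutant 1 or *Nr2f1* mutant C, and 0.0078 with the male-specific covariate), and that for *Efnb2* was -0.052 to 0.41 (below 0 without *Sox2* mutant 1 or *Nr2f1* mutant B). With the replicate block (*Sox2* column numbers 1 and 3, whose deviations correlated at 0.177 and 0.157 and do not establish a pairing) 4 members were called, *Efnb2* being added, and 1611 genes in all. No block could be fitted in the *Nr2f1* line, whose columns share 1 letter. With 3 pools per group an exact test cannot go below 0.1.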
